A study of Mus musculus with 2 samples.

Results

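The forkhead box O (FOXO) and Krüppel-like factor (KLF) genes Foxo1, Foxo3, Klf2, Klf3, Klf4, Klf6, Klf7, Klf10 and Klf13 were followed in Vγ6 γδ T cells of the newborn thymus. These 9 genes were taken by gene symbol from a table of 30142 genes with a symbol of their own. Each was measured by 1 row, and no row named a member together with another gene. The cells were obtained by flow sorting of antibody-stained thymus cells from C57BL/6 mice aged 0 days, a stage at which this γδ T cell subset, which carries the Vγ6 receptor chain, is still being made. One group was MHC class II KO (KO), mice that lack the class II molecules read by the receptors of CD4 T cells, and the other was WT. Each genotype had 1 array, so the differences carry no error and no test, and all values describe these 2 arrays. Which class II gene was disrupted, whether thymi were pooled and which antibodies were used is not stated in the labels. The study asked which genes Vγ6 cells express differently when MHC class II is missing.

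FOXO factors are transcription factors that the kinase AKT phosphorylates and drives out of the nucleus when growth factor or antigen receptors signal. In resting mouse T cells FOXO1 keeps on genes for survival and homing, among them the interleukin 7 receptor, and it switches on Klf2. KLF proteins bind GC-rich and CACCC-containing DNA through zinc fingers at their C-terminal end. KLF2 holds mouse T cells in quiescence and switches on S1pr1, the receptor through which mature thymocytes leave the thymus.

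Sequence upstream of a gene start was available from RefSeq (GRCm38.p6) for 8 of the 9 genes, all but Klf10. For Klf7 these 250 bases, at chr1:64121390-64121639, fall inside the gene's annotated span of 64029448-64122345 and not before it. The sequences of Klf2, the best known quiescence factor of the set, and of Klf4 and Klf6, its members with the lowest differences below, are shown as the 250 bases before the start, 5′ to 3′ on the gene's strand. They lie at chr8:72318812-72319061 on the plus strand for Klf2, chr4:55532476-55532725 on the minus strand for Klf4 and chr13:5861239-5861488 on the plus strand for Klf6. In Klf2, capitals mark CTAAATTTAG, a match to the MEF2 motif. In Klf4 they mark the E-box CACGTG and TGTTTA, the core of the sequence FOXO proteins bind, and in Klf6 they mark CACGTG and CCAAT or its reverse, ATTGG.
Klf2: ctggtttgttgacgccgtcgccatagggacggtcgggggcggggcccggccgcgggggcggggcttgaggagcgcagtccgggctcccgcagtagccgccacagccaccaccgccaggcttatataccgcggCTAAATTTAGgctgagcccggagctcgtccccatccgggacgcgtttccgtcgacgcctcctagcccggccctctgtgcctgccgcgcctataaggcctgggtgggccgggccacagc
Klf4: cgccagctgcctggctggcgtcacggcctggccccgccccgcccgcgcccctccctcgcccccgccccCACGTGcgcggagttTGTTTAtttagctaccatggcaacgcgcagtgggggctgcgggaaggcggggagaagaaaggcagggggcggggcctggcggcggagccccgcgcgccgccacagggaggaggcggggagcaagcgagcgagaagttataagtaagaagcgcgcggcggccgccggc
Klf6: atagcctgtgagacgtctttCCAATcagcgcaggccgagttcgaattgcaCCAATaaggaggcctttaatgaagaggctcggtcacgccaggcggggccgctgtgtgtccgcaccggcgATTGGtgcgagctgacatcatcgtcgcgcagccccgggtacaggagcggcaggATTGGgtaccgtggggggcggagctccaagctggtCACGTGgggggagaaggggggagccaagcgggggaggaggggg

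Each motif was searched on both strands of the same 250 bases of all 32851 RefSeq gene starts. The MEF2 motif, searched as CTANNNNTAG with A or T at each N, was found in Klf2 alone of the 8 genes, starting 118 bases before the gene start, and in 0.51% of all starts. Klf4 and Klf6 were the 2 of 8 genes with CACGTG, which begins 182 bases before the start in Klf4 and 43 in Klf6 and occurs in 6.02% of all starts. The full FOXO sequence GTAAACA was in none of the 8 and in 3.17% of all starts. Its core TGTTTA, which lies within the reverse of GTAAACA, was in Klf4 alone and in 12.0% of all starts. All 8 genes held the GC box GGGCGG, against 32.7% of all starts, and 4 of 8 held CACCC, against 52.0%. The 8 windows, that of Klf7 inside its gene among them, were GC-rich, with a median GC content of 71.4% against 52.4% over all starts. A match is a description of these letters and not a bound site.

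All 9 genes were above background on both arrays. Background was set by genes foreign to T cells, as the 95th percentile of the rows for olfactory receptors, and stood at a signal of 58.2 for KO cells and 61.3 for WT cells. None of the 9 was at least 2-fold apart, where 1.95% of 14494 genes above background were, and none was at least 1.5-fold apart, where 7.17% were. At 1.3-fold, a threshold chosen after the values were seen, 3 of 9 were apart, with Klf10 higher and Klf6 and Klf4 lower in KO cells. Over all genes 18.5% were that far apart, 10.9% higher and 7.60% lower. The median difference of the 9, as log2 signal of MHC class II KO minus WT, was 0.01, and that of all genes above background was 0.04. With the 3 other scalings the members' median turned negative, at -0.03 after centring or quantile normalization and -0.08 after the loess correction. The other 6 members lay between -0.09 and 0.14. For scale, the differences of 2 rows of the same gene disagreed with an SD of 0.24 over 160 genes. Both rows were read on the same arrays, so this SD holds no spread between animals, sorts or arrays.

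**Figure D1:**
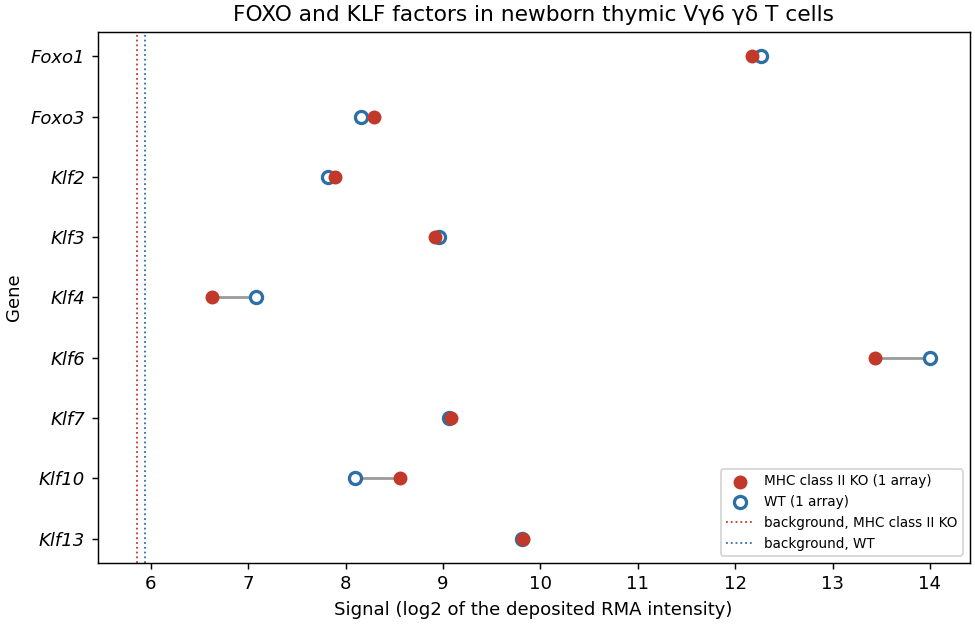
Signal of the 9 FOXO and KLF genes (log2 of the deposited intensity, horizontal axis), with a filled point for KO cells and an open point for WT cells, 1 array each, and dotted lines at each array's background. The points of 6 genes nearly coincide, while Klf6 and Klf4 lie lower and Klf10 higher in KO cells, and all 9 genes lie above both backgrounds.

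Foxo1, the FOXO factor that maintains naive T cells, had a signal of 4628 in KO cells and 4941 in WT cells. Its log2 difference was -0.09. Foxo3, which is known for genes of cell death and oxidative stress defence, had a signal of 314 in KO cells and 285 in WT cells, a log2 difference of 0.14. The 2 differences have opposite signs, but the gap between them, 0.23 on the log2 scale, is no larger than the SD between rows of 1 gene. The remaining FOXO genes of the mouse, Foxo4 and Foxo6, were not above background on either array.

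Klf2 had a signal of 237 in KO cells and 226 in WT cells, a log2 difference of 0.07 that was -0.0010 after a loess correction on signal. Klf3 encodes a repressor that recruits the corepressor CtBP and shares DNA targets with other KLF proteins. It had a signal of 483 in KO cells and 498 in WT cells, a log2 difference of -0.04. Klf7, best known from neurons and blood progenitors, had a signal of 540 in KO cells and 535 in WT cells. Klf13, a factor that in human T cells drives the chemokine gene CCL5, had a signal of 903 in KO cells and 899 in WT cells. The log2 differences of Klf7 and Klf13 were 0.02 and 0.01, and both were below 0 once differences were centred, quantile normalized or loess corrected.

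Klf6, an early response gene expressed in many cell types, had the highest signal of the 9 on both arrays, at 11055 in KO cells and 16386 in WT cells. Probes differ in affinity, so this order of signals is not an order of RNA amounts. The log2 difference of Klf6, -0.57, was the lowest of the 9 and is 1.48-fold lower and just short of 1.5-fold. It passed 1.5-fold when the all-gene median was subtracted (-0.61) or a loess correction was made (-0.60). Of all other genes above background, 7.71% were at least as far apart in either direction. Of the 409 genes within 0.5 log2 units of the mean signal of Klf6, 3.67% were as far apart.

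Klf4, which restrains division of mouse CD8 T cells and is also expressed by myeloid and epithelial cells, lay closest to background of the 9. Its signal was 99.05 in KO cells and 136 in WT cells, against backgrounds of 58.2 and 61.3. The log2 difference was -0.45, or 1.37-fold lower. Klf10, an early gene of the response to TGF-β, went the other way, with a signal of 376 in KO cells and 275 in WT cells. Its log2 difference was 0.45, or 1.37-fold higher, and 0.38 after the loess correction. Differences at least as large as that of Klf4 were found in 12.8% of the other genes, and the same share, 12.8%, held for Klf10. Among genes within 0.5 log2 units of the same mean signal the share was 14.7% for Klf4 and 13.2% for Klf10. The difference of Klf10 exceeded that of Klf6 by 1.02 on the log2 scale and that of Klf4 by 0.91. Subtracting a constant from all differences leaves these gaps as they are.

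**Figure D2:**
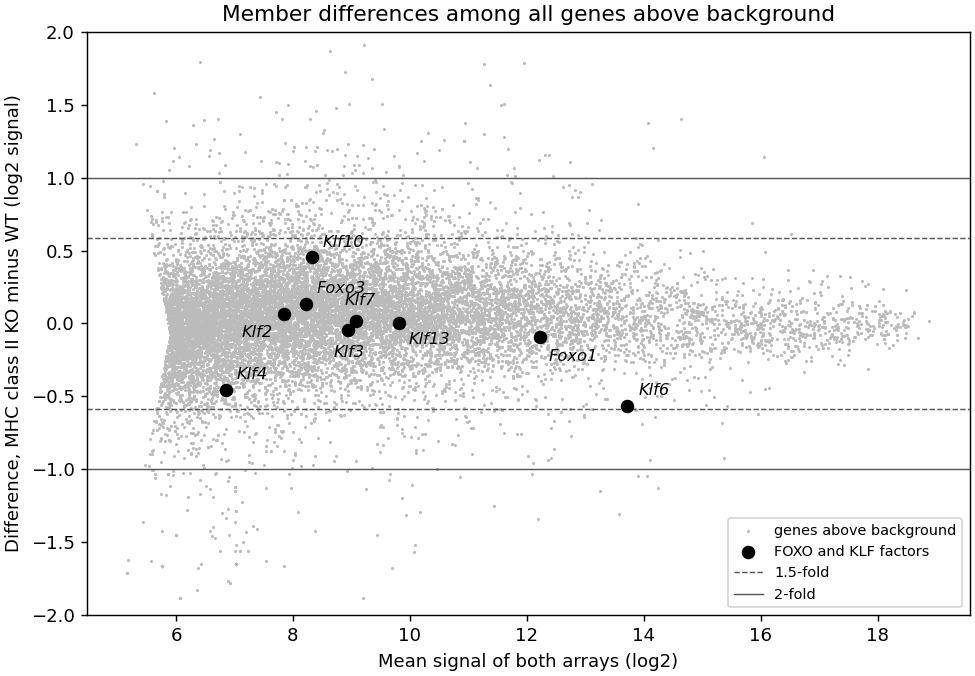
Difference between the arrays (log2 signal, MHC class II KO minus WT, vertical axis) against the mean signal of both arrays (log2, horizontal axis) for the genes above background in grey and the 9 FOXO and KLF genes in black, with lines at 1.5-fold and 2-fold; 15 genes lie outside the plotted range. All 9 lie inside the 1.5-fold lines, Klf6 at -0.57 nearest to one.

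Of the 10 other KLF genes searched, 2 were above background. They were Klf11, a relative of Klf10, with a log2 difference of -0.17, and Klf15, with -0.07. Klf1, Klf5, Klf8, Klf9, Klf12, Klf14, Klf16 and Klf17 were not above background on either array.

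The pair of signals most like that of Klf6 was sought among 13709 other genes above background on both arrays. Over these 2 arrays, the closest by Euclidean distance were Mrpl23-ps1 (0.18 log2 units), Smt3h1-ps (0.20) and Nfkbia (0.21), the gene for an inhibitor of NF-κB. Mrpl23-ps1, the closest, differed by -0.34, Smt3h1-ps by -0.59 and Nfkbia by -0.59. For Klf4 the closest genes were Gm16907 (0.01), Septin4 (0.02) and Gm3411 (0.02).

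Upstream of FOXO, the genes of the phosphoinositide 3-kinase (PI3K) and AKT pathway leaned slightly upwards. All 26 measured of 28 listed were above background, 23 of 26 had differences above 0 and 22 of 26 lay above the median of all genes. Their median was 0.17, or 0.10 after the loess correction, while 0.04 was the median of all genes and 56.4% of all genes were above 0. One gene of the 26, Pik3ap1, was at least 1.5-fold apart, against 7.17% of all genes. Pik3ap1 encodes the PI3K adaptor BCAP, best known from B cells and macrophages, and had a signal of 459 in KO cells and 216 in WT cells, a log2 difference of 1.08. Tsc2, a brake on the growth kinase mTOR, differed by 0.58, the mTOR partner gene Mlst8 by 0.38 and Phlpp1, a phosphatase that switches AKT off, by 0.36. Akt1 and Akt2 themselves differed by 0.04 and 0.11. Markers of dendritic cells and macrophages exceeded background in 6 of 19 measured cases, and these 6 had a summed signal of 3254 in KO cells and 1935 in WT cells. Ctss, the gene for a lysosomal protease, made up most of both sums, at 2104 in KO cells and 1262 in WT cells, and differed by 0.74. The transcription factor gene Irf8 differed by 1.11 and the lysosomal gene Cd68 by 0.91, while Siglech and Fcgr3 differed by 0.03 and -0.07. Lyz2, above background only in KO cells, was at least 1.23-fold higher in them. All 19 summed to 3686 in KO cells and 2392 in WT cells. Csf1r, Adgre1 and C1qa, defining genes of macrophages, were not above background on either array. The part of such cells in the difference of Pik3ap1 was not tested.

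The 14-3-3 adaptor genes, whose proteins hold phosphorylated FOXO in the cytoplasm, had a median of 0.26, and 5 of 7 were above 0, against 56.4% of all genes. Ywhag, Ywhah, Ywhab and Ywhaq had differences of 0.34, 0.30, 0.28 and 0.26, and none of the 7 was at least 1.5-fold apart, where 7.17% of all genes were. Ywhae, which had the highest signal of the 7, and Ywhaz each differed by -0.06. All 7 summed to 75298 in KO cells and 74951 in WT cells. Genes whose products modify FOXO proteins or act with them, most of them enzymes, were above background in 16 of 17 measured cases. Bcl6 was above it only in KO cells. These 16 genes had 10 differences above 0 and 6 below, where 56.4% of all genes were above 0. Their median was 0.13, but 0.05 when both arrays had to be above background or background was set at the 99th percentile, and none of the 16 was at least 1.5-fold apart, against 7.17% of all genes. The cell cycle kinase gene Cdk2 differed by 0.55, Skp2, the gene for a ubiquitin ligase subunit, by 0.41, the deacetylase gene Sirt2 by 0.35 and the kinase gene Mapk9 by -0.30.

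Targets of FOXO factors showed no common direction. Of 34 measured, 29 were above background, with 14 above 0, 14 below and 1 at exactly 0, and the median was 0.00. At least 1.5-fold apart were 4 of 29, 1 higher and 3 lower, against 7.17% of all genes. Il7r, S1pr1 and Ccr7, targets tied closely to FOXO1 or KLF2 in T cells, were within 1.5-fold. Il7r, the interleukin 7 receptor gene, had a signal of 39203 in KO cells and 27776 in WT cells, a log2 difference of 0.50. S1pr1 had a signal of 684 in KO cells and 618 in WT cells (0.15), and Ccr7, a homing receptor gene, 908 in KO cells and 859 in WT cells (0.08).

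The FOXO targets furthest apart went both ways. Ctla4, an inhibitory receptor gene that FOXO factors switch on in mouse regulatory T cells, was lowest, with a signal of 226 in KO cells and 2487 in WT cells (-3.46). Irs2, an adaptor of insulin signalling that FOXO factors induce, had a signal of 12768 in KO cells and 24480 in WT cells, a log2 difference of -0.94. Cdkn1a, which encodes the cell cycle inhibitor p21, had a signal of 193 in KO cells and 298 in WT cells (-0.63). Sesn3, a stress response gene that FOXO factors induce, had a signal of 10210 in KO cells and 5579 in WT cells (0.87). Its relatives differed less, with Sesn1 at -0.19 and Sesn2 at 0.29. The 25 targets within 1.5-fold ran from -0.33 for Fbxo32, the gene for a ubiquitin ligase subunit of muscle wasting, to 0.52 for the catalase gene Cat. Between these lay the DNA damage response gene Gadd45a at -0.27, the death gene Bcl2l11 at -0.22, the cyclin gene Ccng2 at -0.16, the cell cycle inhibitor gene Cdkn1b at -0.04, Txnip, a brake on glucose uptake, at -0.0049, the pocket protein gene Rbl2 at 0.26 and the peroxiredoxin gene Prdx3 at 0.32.

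**Figure D3:**
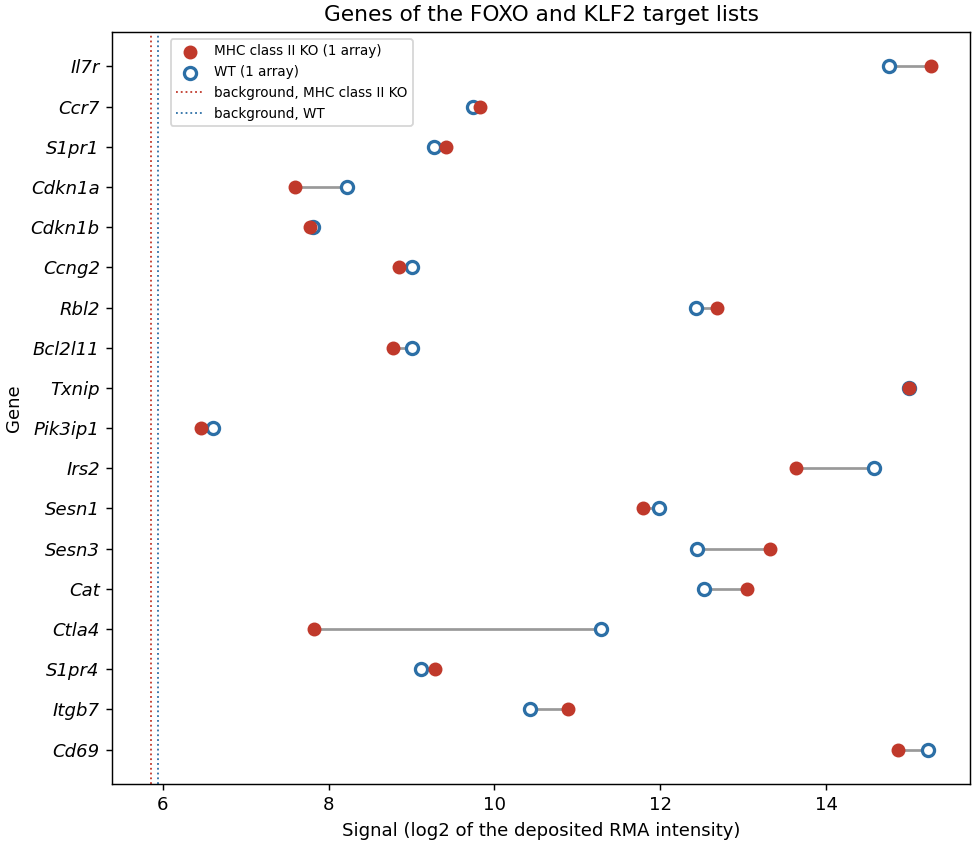
Signal (log2 of the deposited intensity, horizontal axis) of 18 genes of the FOXO and KLF2 target lists, chosen for their known roles, with a filled point for KO cells and an open point for WT cells, 1 array each, and dotted lines at each array's background. Ctla4, Irs2 and Cdkn1a lie lower and Sesn3 higher in KO cells, while the points of Txnip, Cdkn1b, Ccr7 and S1pr1 nearly coincide. Plaur (-2.30) and Cxcr4 (-1.31), the genes furthest apart in the KLF2 and thymic exit list, are not shown.

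Genes of thymic exit and targets of KLF2 had a median of -0.04 over 11 of 12 measured genes, which was -0.11 after the loess correction. At least 1.5-fold apart were 3 of 11, all lower, against 7.17% of all genes. Those 3 were Cdkn1a, Cxcr4, a chemokine receptor gene that retains cells in tissue (-1.31), and Plaur, the urokinase receptor gene (-2.30). Cdkn1a, Cdkn1b, S1pr1 and Ccr7 were also counted among the FOXO targets. Cd69, whose protein removes S1PR1 from the cell surface, had a signal of 29805 in KO cells and 38509 in WT cells, a log2 difference of -0.37. Itgb7, an integrin chain gene that KLF2 switches on, differed by 0.46 and S1pr4 by 0.17.

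The kinase ERK5 and the MEF2 factors are known to switch on Klf2 and Klf4. Their genes had a median of -0.05 over 6 of 7 measured genes, which was -0.12 after the loess correction. None of the 6 was at least 1.5-fold apart, against 7.17% of all genes. Mapk7, the gene for ERK5, differed by 0.31 and its activating kinase gene Map2k5 by 0.12, while Mef2d differed by -0.16, Mef2a by -0.03 and Map3k2, a kinase gene further upstream, by -0.17. Partners of KLF proteins and ubiquitin ligases, taken as 1 list, had a median of 0.11 over 16 of 17 genes, which was 0.04 after the loess correction. Of the 16, 12 were above 0, against 56.4% of all genes, among them Egr1, above background only in KO cells. One of the 16, the histone deacetylase gene Hdac1, was at least 1.5-fold apart, against 7.17% of all genes, with a signal of 7355 in KO cells and 4822 in WT cells (0.61). Hdac3 differed by 0.56, Fhl3 by 0.35, the acetyltransferase gene Ep300 by 0.24 and Ctbp1, the gene for the corepressor of KLF3, by 0.13. The 4 genes of this list below 0 were its ubiquitin ligase genes. Smurf1, Wwp1 and Fbxw7, which lower KLF2 protein, differed by -0.23, -0.15 and -0.03, and Itch by -0.10.

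Other genes known to hold lymphocytes in quiescence had a median of 0.22 over 22 of 25 measured genes. The list's median was 0.17 after the loess correction, and that of all genes above background was 0.04. Of the 22, 17 were above 0, against 56.4% of all genes, and 5 were below, the lowest at -0.39. Tob2 alone was at least 1.5-fold higher (1 of 22, where 7.17% of all genes were 1.5-fold apart). Tob2, an antiproliferative gene, had a signal of 132 in KO cells and 79.5 in WT cells (0.73). Vsir, an inhibitory receptor gene, differed by 0.50, the retinoblastoma gene Rb1 by 0.44, the ubiquitin ligase gene Peli1 by 0.41 and Foxp1, a forkhead factor of naive T cells, by 0.02. Btg1 and Btg2, which slow division of T cells, differed by -0.25 and 0.19.

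**Figure D4:**
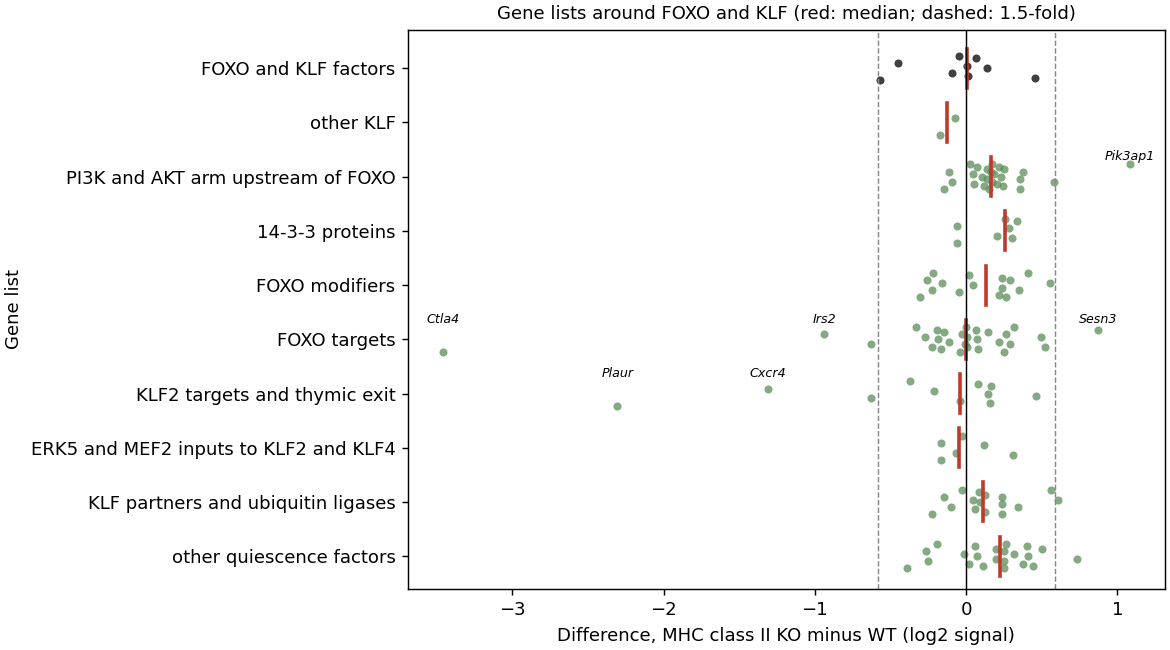
Difference between the arrays (log2 signal, MHC class II KO minus WT, horizontal axis) for each gene above background in the lists around the FOXO and KLF factors (vertical axis); each point is 1 gene, red bars are list medians and dashed lines mark 1.5-fold. The 9 factors in black centre on 0.01, the PI3K and AKT genes on 0.17, and Ctla4, Plaur and Cxcr4 lie furthest to the left.

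Several KLF genes also respond to cell isolation and are expressed by other cells of the thymus, so the markers of both were read on the same arrays. Genes of dissociation and the immediate early response had a median of 0.11 over 15 of 17 measured genes. The summed signal of all 17 was 64970 in KO cells and 71333 in WT cells. Dusp1 made up most of both sums, at 44988 in KO cells and 48269 in WT cells. The genes of this list went both ways, with Fosl2 at -1.11, Nr4a1 at -0.86 and Hsph1 at 1.02. Endothelial and mesenchymal markers were above background in 3 of 16 cases, with Cdh5, Kdr and Tek not above it on either array, and summed to 3559 in KO cells and 3794 in WT cells. Most of that was Sparc, at 2487 in KO cells and 2740 in WT cells. Most double positive and αβ thymocyte markers were higher in KO cells, with a median of 0.74 over 11 of 12 measured genes. Cd3e, which γδ T cells also express, made up 78.2% of the list's summed signal in KO cells and 89.7% in WT cells. Without Cd3e the sum was 33313 in KO cells and 14066 in WT cells, a ratio of 2.37, and with it 152821 in KO cells and 136583 in WT cells. Cd8b1, a chain of the CD8 coreceptor, had the largest share of the rest, with a signal of 27602 in KO cells and 10634 in WT cells (1.38). Of the 11, 9 were above 0, and Ccr9 was lowest at -1.29. Rag2 was not above background on either array, and Dntt, above it only in KO cells, was at least 3.68-fold higher in them. Genes typical of γδ T cells, of which all 12 measured were above background, summed to 447687 in KO cells and 430649 in WT cells, but Cd3e, Cd3d and Cd3g, shared by all T cells, made up 69.2% of the sum in KO cells and 67.9% in WT cells. The other 9 genes summed to 137934 in KO cells and 138263 in WT cells and went both ways. Il17a, the gene for interleukin 17A, differed by -1.57 and the receptor chain segment Trgv7 by 1.11, while Tcrg-V6 differed by -0.31 and Trdv4 by 0.22. Ratios of summed signals, MHC class II KO over WT, were taken over all measured genes of a list. They were 0.91 for thymic epithelial cells (6 of 14 genes above background) and 2.53 for B cells (2 of 8, mainly Ighm). For granulocytes and mast cells the ratio was 0.85 (5 of 12), and for red blood cells and platelets 0.92 (2 of 7). Over only the genes above background, in the same order, the ratios were 0.95, 2.55, 0.83 and 0.81. Cd79b, the other B cell marker above background, differed by 0.11. In such bulk RNA, fewer cells of a type and less RNA per cell cannot be told apart. The part of these cells and of the isolation response in the differences of Klf6, Klf4 and Klf10, or in the medians of the PI3K, 14-3-3 and quiescence lists, was not tested.

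**Figure D5:**
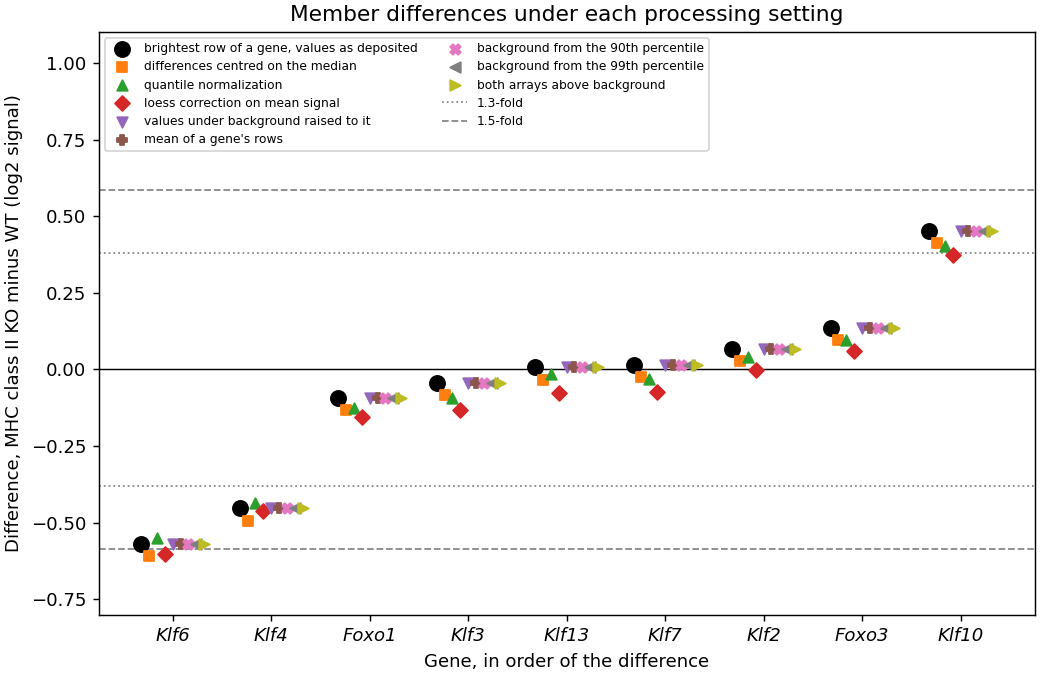
Difference of each of the 9 genes (log2 signal, MHC class II KO minus WT, vertical axis) under each of 9 processing settings, 1 symbol per setting, with the genes in order of their difference (horizontal axis) and lines at 1.3-fold and 1.5-fold. Klf6 and Klf4 stay outside the 1.3-fold lines under all settings shown, Klf10 does so except after the loess correction, Klf6 crosses 1.5-fold under 2 settings, and Klf2, Klf7 and Klf13 change sign.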

How the data were processed

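RNA of sorted thymic Vγ6 γδ T cells was measured on whole-transcript arrays, 1 for MHC class II KO and 1 for WT. The authors deposited intensities on a linear scale for 65956 rows, and RMA and Affymetrix Expression Console 1.4.1 are named per the submitters' processing notes. Not given in the sources used here are their settings and the rows' genome build. The deposited intensities reached 487523, past the 16-bit scanner ceiling of 65535, so a step not described in the labels rescaled them and could have widened or narrowed every fold. The number of arrays limits the precision.

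The log2 of each intensity was taken. Platform symbols, which can be old, were updated through RefSeq (GRCm38.p6), changing 827. Rows with several symbols (2146) or none (33206) were left out. The brightest row stood for a gene, and genes above the 95th percentile of 1228 olfactory receptor rows on at least 1 array were kept. Values not above it are bounds. No test was possible. Python 3.11.15, pandas 2.3.3 and statsmodels 0.14.6 were used.

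The members and lists were chosen with earlier results of these data known. Some genes stand in more than 1 list, and the member Klf2 is also a listed FOXO target, so the list results are not separate observations. All members were named, and of each list the genes at least 1.5-fold apart, the 4 furthest apart, and S1pr1, Ccr7, Il7r and Cd69 whatever their values. One further gene is not reported here. Genes named beyond this rule, among them Akt1, Txnip and Foxp1, were chosen for their roles after their values were seen. Alternatives were 3 other scalings, values raised to background, averaged rows and 3 other filters.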

Additional observations from a re-analysis of the deposited data

How the results depend on the processing

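Each member had 1 row, above background on both arrays, so only the 3 other scalings could change a member's value. Under the 8 alternatives, none of the 9 genes was at least 1.5-fold apart except Klf6. It made the count of members at least 1.5-fold lower 1 in place of 0 when differences were centred on their median, and also when they were loess corrected on mean signal (fraction 0.3), since both subtract a positive shift from its difference. At 1.3-fold, a threshold chosen after seeing the data, 2 members were lower under each alternative, and 1 was higher except after the loess correction, which left 0, with Klf10 at 0.38. Klf6 ranged from -0.61 to -0.55, Klf4 from -0.49 to -0.44 and Klf10 from 0.38 to 0.45. The 3 other scalings each put Klf7 and Klf13 below 0, and Klf2 was -0.0010 after the loess correction. The median of the 9 ranged from -0.08 to 0.01, below 0 under the 3 other scalings. The PI3K and AKT median ranged from 0.10 to 0.17 and that of the FOXO targets from -0.04 to 0.0017. No paired analysis was possible because each genotype had 1 array. Klf4 lay closest to background, which limits what its fold can show.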

Other observations

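Genes next to the members along the chromosomes, by the order in the GRCm38.p6 gene table and among genes above background, were read on the same arrays after the member values were seen. Beside Klf6, Pitrm1 differed by 0.34 and Gm24790 by -0.07, while Klf6 differed by -0.57. Klf10 was flanked by Azin1, which encodes an inhibitor of antizyme in polyamine synthesis, at 0.26 and Gm22353 at -0.16. Klf4 lay between Gm22150 at -0.04 and Abitram at 0.12. Tlr1, a receptor gene for bacterial lipoproteins, lies beside Klf3 and had a log2 signal of 10.22 in KO cells and 8.89 in WT cells, a difference of 1.33 beside -0.04 for Klf3. Maml3, a coactivator gene of Notch beside Foxo1, had a log2 signal of 6.62 in KO cells and 7.26 in WT cells, a difference of -0.64 beside -0.09 for Foxo1.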
